A study of Mus musculus with 12 samples.

Results

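The response of mouse aortic smooth muscle cells (SMC) to the oxidized phospholipid POVPC was read from 6 of the 12 arrays of the series, 3 from cells treated with POVPC and 3 from cells given only the vehicle DMSO. The arrays were chosen by their titles, and all probes of the array were used. All 6 samples came from primary mouse aortic SMC that had been transfected with a pooled non-target siRNA (siNT) for 48 h in serum-free medium. siNT-POVPC cells then received 10 µg/mL POVPC for 24 h, and siNT-DMSO cells received DMSO for 24 h, so the transfection and the serum-free medium were shared by both groups. The other 6 arrays are from cells with an siRNA against Oct4 in place of the non-target siRNA, with the same treatments (siOCT4-DMSO and siOCT4-POVPC, 3 arrays each), and they were used to estimate the spread and to set the POVPC response of these cells beside that of siNT cells. The labels do not say whether the 3 samples of a group came from separate cultures or animals, so all p-values measure only the spread between these samples.

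POVPC is a fragmented phosphatidylcholine that forms when the fatty acid chain of a membrane or lipoprotein phospholipid is oxidized, and it accumulates in atherosclerotic lesions. SMC of the vessel wall are known to respond to such lipids by losing contractile proteins and by migrating. Cells keep their own sterols and unsaturated fatty acids in balance through the SREBP transcription factors, which switch on the enzymes of sterol and fatty acid synthesis together, whereas cytokine genes answer to NF-kappaB and interferon-induced genes to the STAT and IRF factors.

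Each array measured long non-coding RNAs (lncRNAs) and mRNAs with 60-base probes, and the values below are quantile-normalized log2 signals, on which a difference of 1 is a factor of 2. A probe's brightness depends on its sequence, so levels are compared between arrays and never between genes. Of the probes, 33881 for lncRNAs and 20625 for mRNAs were well above background on at least 3 arrays and were tested. The 6 arrays lay on the same slide and were not equally alike. siNT-POVPC replicates 1 and 2 had a Pearson r of 0.991 across probes, whereas replicate 3 had an r of 0.967 and 0.972 with them. Among the siNT-DMSO arrays r ran from 0.961 to 0.981, and siNT-DMSO replicate 1 was about as close to the POVPC arrays, with r from 0.973 to 0.979, as to its own group. The first principal component, with 44.2% of the variance, placed the DMSO arrays at -7.8, 119.7 and 38.7 and the POVPC arrays at -85.2, -63.9 and -1.5, so that siNT-DMSO replicate 1 and siNT-POVPC replicate 3 were neighbours in the middle.

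Technical measures also differed between the groups. The difference between the probes at the 3′ and 5′ ends of the Gapdh mRNA was 1.53, 1.35 and 1.69 on the log2 scale in siNT-DMSO and 1.11, 0.86 and 0.82 in siNT-POVPC, without overlap. The same difference for Pgk1 was 8.60, 8.15 and 8.65 in siNT-DMSO and 8.11, 8.15 and 8.12 in siNT-POVPC, lower on the POVPC arrays, although replicates 2 of both groups were nearly equal. The 75th percentile of the processed signal before normalization was 289, 245 and 235 in siNT-DMSO and 429, 352 and 392 in siNT-POVPC, also without overlap. The RNA of the POVPC samples was thus the brighter and had the smaller 3′ excess for both genes, and the part of these measures in the differences below was not tested beyond a fit with the Gapdh difference as a covariate.

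**Figure D1:**
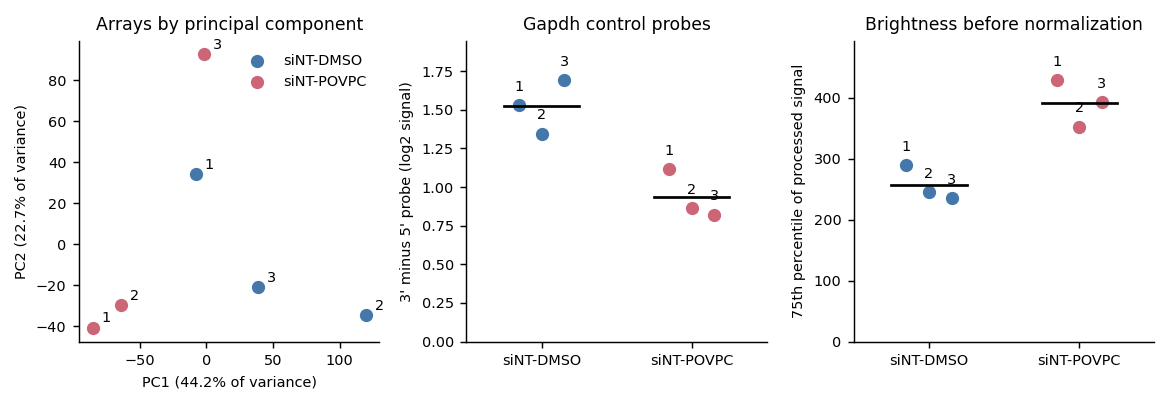
The 6 siNT arrays by principal components 1 and 2 (left, share of the variance in percent), the log2 difference between the 3′ and 5′ Gapdh probes (middle) and the 75th percentile of the processed signal before normalization (right). Points are arrays with their replicate number and lines are group means. siNT-DMSO replicate 1 and siNT-POVPC replicate 3 lie between the other arrays in the first panel, and the groups do not overlap in the other 2 panels.

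Most transcripts had close levels in both groups. The median difference over all 54506 probes was -0.02 on the log2 scale, the median size of the difference was 0.25, and 2663 probes (4.89%) differed by a factor of 2 or more, 1543 of them higher and 1120 lower with POVPC. The spread was similar, with a median SD of 0.28 over the siNT-DMSO arrays and 0.25 over the siNT-POVPC arrays. When a call required an adjusted limma p below 0.05 together with a change of 1.5-fold or more, 4 of the 54506 probes were called (0.00734%), of which 3 were higher (0.0055%) and 1 was lower (0.00183%) with POVPC. By class, 2 lncRNA probes (0.0059%) and 2 mRNA probes (0.0097%) were called. A further 7 probes brought the number with an adjusted limma p under 0.1 to 11, and 1857 had one under 0.2. At an unadjusted limma p under 0.05 and the same fold, 1571 lncRNA probes were higher (4.64%) and 1808 lower (5.34%), and 1109 mRNA probes were higher (5.38%) and 1165 lower (5.65%). The 3 arrays of one group lay wholly above the 3 of the other for 9543 probes (17.5%), with 3855 higher (7.07%) and 5688 lower (10.4%) with POVPC.

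The number of calls depended on single arrays. Without siNT-DMSO replicate 1, limma called 504 probes, 258 higher and 246 lower, and without siNT-POVPC replicate 3 it called 397, 229 higher and 168 lower. Both sets held the 4 probes called with all arrays, but they shared only 61 probes, which are 12.1% of the first and 15.4% of the second. These 2 arrays lay between the groups on the first principal component. Without any one of the other 4 siNT arrays no probe was called, with 2621 to 3061 lncRNA and 1642 to 2026 mRNA probes at an unadjusted limma p under 0.05 and 1.5-fold.

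**Figure D2:**
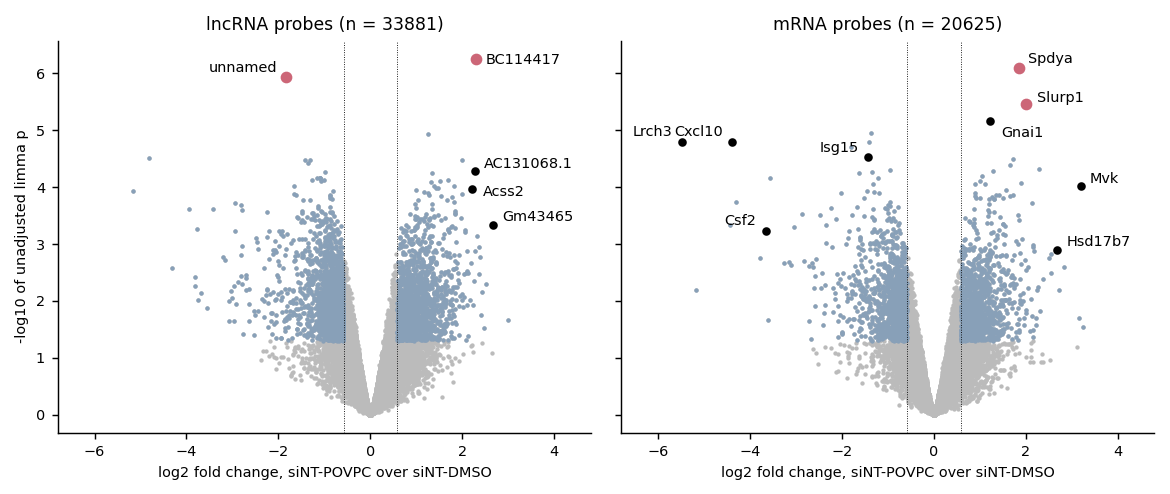
Log2 fold change of POVPC over DMSO in siNT cells (horizontal axis) against -log10 of the unadjusted limma p (vertical axis) for 33881 lncRNA probes (left) and 20625 mRNA probes (right). Red points are the 4 probes called at an adjusted p under 0.05, blue points pass an unadjusted p of 0.05 and the 1.5-fold limit (dotted lines), black points are other named transcripts of the text, and grey points are the rest.

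The transcript with the smallest p of all was BC114417, an lncRNA transcribed antisense to Scd1, the gene of stearoyl-CoA desaturase, which puts a double bond into saturated fatty acids. It runs from 44396324 to 44396927 on the plus strand of chromosome 19, inside Scd1 on the minus strand (44394451 to 44407709). The coordinates are those the study lists, and 826 of 827 listed mRNAs with a gene of their symbol in the GRCm38 gene table overlapped that gene. The first 30 bases of the probe that measured BC114417, from the study's probe list, are shown because this probe had the smallest p.
BC114417 probe: agtttcatgttccaagtgaagattttgctt
BC114417 had a log2 signal of 4.90, 4.61 and 4.72 in siNT-DMSO replicates 1 to 3 and of 7.25, 7.21 and 6.67 in siNT-POVPC. All POVPC arrays lay far above all DMSO arrays, and the rise was 2.30 (SE 0.23, adjusted p = 0.0211 from limma). With normexp background correction, which shrinks differences of dim probes, the rise was 1.16 with an adjusted p of 0.0477. The Scd1 mRNA itself was bright and higher on all POVPC arrays, at 15.20, 13.02 and 15.06 in siNT-DMSO and 16.64, 16.77 and 16.34 in siNT-POVPC, a difference of 2.16 (SE 0.49) with an adjusted limma p of 0.137. BC114417 and Scd1 probes share no run of more than 6 bases. This compares only the probes with each other, and whether the BC114417 probe also takes up signal from Scd1 RNA was not tested.

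2 mRNAs rose. Spdya encodes Speedy A, an activator of cyclin-dependent kinases. Its log2 signal was 4.49, 4.04 and 3.99 in siNT-DMSO and 5.89, 6.06 and 6.11 in siNT-POVPC, a rise of 1.85 (SE 0.19, adjusted p = 0.0211 from limma), and it was 0.72 with normexp background correction. Slurp1, a secreted protein of the Ly6 family that acts on nicotinic acetylcholine receptors, went from 5.07, 5.46 and 5.80 in siNT-DMSO to 7.54, 7.63 and 7.21 in siNT-POVPC, a rise of 2.01 (SE 0.24, adjusted p = 0.0476 from limma), which was 1.20 with normexp. The only called fall was in an lncRNA probe with no gene name in the sources used here, ASMM10LNC1A102714546V4, which measured 8.87, 9.30 and 8.97 in siNT-DMSO and 7.10, 7.02 and 7.52 in siNT-POVPC, a difference of -1.83 (SE 0.19, adjusted p = 0.0211 from limma). Across 25 other settings of the analysis BC114417 was called in 17, the unnamed probe in 15, Spdya in 14 and Slurp1 in 11. In a limma fit to only the 6 siNT arrays none of the 4 was called, with adjusted p from 0.213 to 0.319. With the replicate block only BC114417 of the 4 was called. In bulk RNA, fewer cells of a type and less RNA per cell cannot be told apart, here and in every result below.

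The other transcripts that can be named need a caution. Gene names were available for 857 mRNA probes (443 higher and 414 lower with POVPC) and 298 lncRNA probes (all higher), because the study listed these probes for their difference between these same 6 arrays. Counts of higher and lower genes among them are therefore descriptions and not evidence, and a list member without a name may have been unchanged or may have missed the study's threshold. No named probe reads Oct4, so its knockdown was not checked here. The siOCT4 arrays took no part in that choice and share no array with the siNT arrays, so their values are given beside. 2 of the siOCT4-DMSO arrays lay on the same slide as the siNT arrays, but the third and all siOCT4-POVPC arrays lay on another slide, so slide and treatment are partly mixed there. Over all 54506 probes, 58.6% had a POVPC response of the same sign in both kinds of cells. The share was 70.9% of the 443 listed higher mRNAs, with a median of 0.89 in siNT cells and 0.26 in siOCT4 cells. It was 75.6% of the 414 listed lower mRNAs, with medians of -0.89 and -0.31, and 58.7% of the 298 listed lncRNAs, with medians of 1.28 and 0.12. For comparison, of all mRNA probes past the unadjusted limma threshold with its fold limit, 75.7% of the higher and 76.5% of the lower had the same sign in siOCT4 cells, and of such lncRNA probes 69.1% of the higher.

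Genes of sterol synthesis were higher with POVPC wherever they could be named. Of 21 enzymes and cofactors of the pathway, 8 had a named probe, and all 8 were higher with POVPC, from 1.83 to 3.20, with a median of 2.16. All 8 passed the unadjusted limma p under 0.05 with a 1.5-fold change, as did 403 of the 443 listed higher mRNAs, so that the naming nearly fixes this count, and none passed the adjusted threshold. Mvk, mevalonate kinase, was at 4.15, 2.98 and 5.02 in siNT-DMSO and at 7.36, 8.11 and 6.29 in siNT-POVPC, a difference of 3.20 (SE 0.54, limma adjusted p = 0.103). It was well above background on 2 of the 3 DMSO arrays, so this size is uncertain. Hsd17b7, a sterol ketone reductase, was at 10.09, 10.77 and 10.29 in siNT-DMSO and at 13.79, 14.08 and 11.35 in siNT-POVPC, a difference of 2.69 (limma adjusted p = 0.141). In both genes siNT-POVPC replicate 3 was the lowest of its group and still above all DMSO arrays. Replicate 3 was also the lowest for the group as a whole, whose median distance from the DMSO mean was 2.20 and 2.83 in siNT-POVPC replicates 1 and 2 and 1.145 in replicate 3. In siOCT4 cells all 8 were higher with POVPC, with a median of 1.38, and 7 of them passed the unadjusted limma threshold, against 4.53% of mRNA probes and 23.5% of the 443 listed higher mRNAs (104) there.

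Fatty acid synthesis and desaturation genes and other SREBP targets followed the same pattern at smaller size. Of 24 genes 9 had a named probe, and all were higher, from 0.83 to 2.16, with a median of 1.38. Besides Scd1 they included Acss2, which makes acetyl-CoA from acetate, with a difference of 1.72 (SE 0.30, limma adjusted p = 0.103), and Fads2, the delta-6 desaturase, with 1.91 (limma adjusted p = 0.129). Fads2 was at 6.21, 6.23 and 6.87 in siNT-DMSO and at 8.69, 8.98 and 7.38 in siNT-POVPC. All 9 had the same sign in siOCT4 cells, with a median of 0.88, and 6 passed the unadjusted threshold there, against the same 4.53% and 23.5%. Without siNT-POVPC replicate 3, when 397 of 54506 probes were called, 5 of the 8 sterol genes (Mvk, Erg28, Mvd, Hsd17b7 and Hmgcs1) and 3 of the 9 others (Acss2, Tlcd1 and Fads2) were called at an adjusted limma p under 0.05. Without siNT-DMSO replicate 1, when 504 were called, 1 of the 8 (Mvk) and 2 of the 9 (Elovl5 and Erlin2) were, and without any one of the other 4 siNT arrays none was. With the Gapdh covariate the medians of the 2 groups were 1.83 and 1.44, and with normexp 1.69 and 0.92.

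The promoter of Hmgcs1, which encodes the first committed enzyme of the mevalonate pathway, shows the 2 elements that SREBP and its partner NF-Y are known to use. Hmgcs1 was at 7.62, 8.93 and 7.84 in siNT-DMSO and at 10.43, 10.88 and 9.04 in siNT-POVPC (difference 1.99, SE 0.49, limma adjusted p = 0.156). Promoters were read as the 250 bases before each gene's start in RefSeq (GRCm38.p6), and both strands were searched for the sterol regulatory element TCACNCCAC and the NF-Y box CCAAT. The stretch below is chr13:119690101-119690325 on the plus strand, with matches in capitals: the sterol element begins 137 bases before the start, and CCAAT is read on the other strand as ATTGG at 237, 176 and 45 bases before it.
Hmgcs1 promoter: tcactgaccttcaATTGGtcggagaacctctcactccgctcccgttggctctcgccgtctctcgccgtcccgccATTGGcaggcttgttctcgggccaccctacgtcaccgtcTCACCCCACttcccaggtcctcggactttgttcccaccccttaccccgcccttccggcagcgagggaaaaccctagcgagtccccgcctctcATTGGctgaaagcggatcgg
Of the 8 sterol genes, all of which matched a promoter, 1 held the sterol element and 7 held an NF-Y box. Among 27025 genes with a promoter, 1.22% and 37.5% held them. Of 6 genes of the other SREBP target list with a promoter, none held the sterol element and 3 held an NF-Y box. The NF-Y box was also in 4 of 6 interferon-induced and 6 of 9 immediate early genes, whose groups are described below and were mostly lower. A match is a description of the letters and not of binding.

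**Figure D3:**
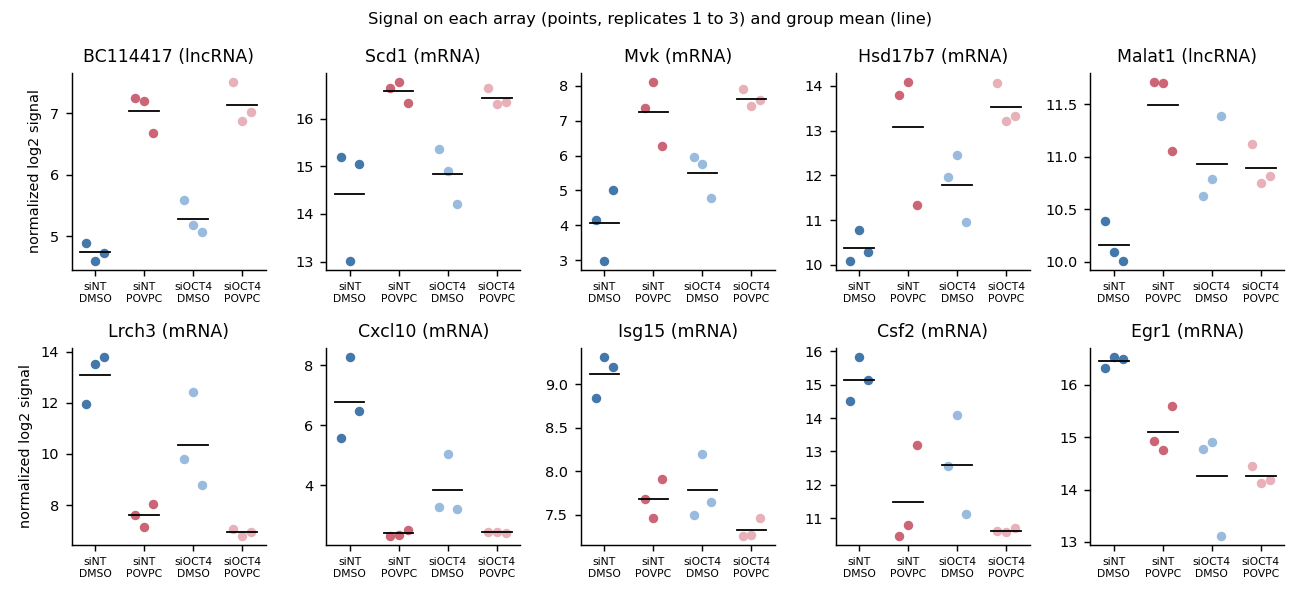
Normalized log2 signal of 10 transcripts (vertical axes) on each of the 12 arrays, in 4 groups of 3 replicates, with lines at the group means. In siNT cells the POVPC and DMSO arrays do not overlap for any of the 10, with the 5 in the upper row higher and the 5 in the lower row lower with POVPC.

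Outside lipid synthesis, the named mRNAs with the largest positive differences had varied roles. Arid1b, a subunit of the BAF chromatin remodelling complex, differed by 2.84 (SE 0.73, limma adjusted p = 0.165). In siOCT4 cells it differed by -0.15, with siOCT4-DMSO at 6.72, 5.75 and 8.40 and siOCT4-POVPC at 6.87, 7.41 and 6.165. The value of 8.40 is from the siOCT4-DMSO array on the other slide, and the -0.15 depends on it. Aqp1, a water channel, was tightly grouped in siNT-DMSO at 10.52, 10.50 and 10.66 and stood at 13.62, 13.71 and 11.89 in siNT-POVPC, a difference of 2.51 (limma adjusted p = 0.152). Decr2, a peroxisomal reductase of unsaturated fatty acid breakdown, differed by 2.29 (limma adjusted p = 0.103), the lymphangiogenic factor Vegfd by 2.24 (0.197) and the matrix protein dermatopontin, Dpt, by 2.13 (0.11). Aqp1 and Vegfd were also higher in siOCT4 cells, by 1.71 and 2.01, and Dpt by 0.27. The named mRNA that came closest to the threshold was Gnai1, an inhibitory G protein subunit, at 11.28, 11.17 and 10.91 in siNT-DMSO and 12.39, 12.46 and 12.19 in siNT-POVPC (difference 1.23, SE 0.16, limma adjusted p = 0.074).

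The largest negative differences among named mRNAs exceeded the largest positive one in size. Lrch3, a leucine-rich repeat protein with a calponin homology domain, was at 11.95, 13.50 and 13.78 in siNT-DMSO and at 7.61, 7.14 and 8.03 in siNT-POVPC, a difference of -5.48 (SE 0.76, limma adjusted p = 0.0888). All 3 POVPC arrays were more than 3 units below the lowest DMSO array, and the difference in siOCT4 cells was -3.39. Dppa3, a protein of germ cells and early embryos, differed by -4.43 (limma adjusted p = 0.117) over DMSO values of 4.61, 9.45 and 6.97, which were far apart. Dppa3 was well above background on only 1 of the 3 POVPC arrays, so this size is uncertain. Mrpl24, a protein of the large subunit of the mitochondrial ribosome, differed by -3.56 (limma adjusted p = 0.103) and by -2.77 in siOCT4 cells. Besides Gnai1 and Lrch3, 5 probes had adjusted limma p-values between 0.05 and 0.1. These were Cxcl10, described below, the lncRNA AK156936, at higher values with POVPC (adjusted p = 0.0888), Serpinf2, the inhibitor of plasmin (-1.36, adjusted p = 0.0888), the receptor Mrgprh (-1.40, adjusted p = 0.0888) and Cers3, a ceramide synthase (-1.79, adjusted p = 0.0979). Cers3, Mrgprh and Serpinf2 differed by 0.18, -0.10 and -0.25 in siOCT4 cells.

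Cytokine, chemokine and NF-kappaB pathway genes were mostly at lower levels with POVPC. Of 32 genes 19 had a named probe, 16 of them lower and 3 higher, with a median of -0.75. Of these 14 lower and 2 higher ones passed the unadjusted limma threshold, as did 401 of the 414 listed lower and 403 of the 443 listed higher mRNAs, so that the naming nearly fixes these counts. Cxcl10, the interferon-gamma-induced chemokine, was at 5.57, 8.27 and 6.48 in siNT-DMSO and was not well above background on any POVPC array, which makes it at least 14.1-fold lower (limma adjusted p = 0.0888). The bound takes the POVPC arrays at their lowest signal well above background. Csf2, the growth factor GM-CSF, was bright at 14.50, 15.82 and 15.12 in siNT-DMSO and at 10.48, 10.79 and 13.21 in siNT-POVPC, a difference of -3.66 (SE 0.77, limma adjusted p = 0.12). Here siNT-POVPC replicate 3 again lay closest to the DMSO arrays. Ccl5, a chemokine for T cells, was at 13.04, 13.05 and 12.91 in siNT-DMSO and at 10.93, 10.80 and 11.58 in siNT-POVPC (difference -1.90, limma adjusted p = 0.133). In siOCT4 cells it differed by 0.63, with siOCT4-DMSO at 10.86, 11.35 and 9.33 and siOCT4-POVPC at 10.74, 11.41 and 11.26. The value of 9.33 is from the siOCT4-DMSO array on the other slide, and the 0.63 depends on it. Among the pathway's regulators, Nfkbia, the inhibitor that is itself an NF-kappaB target, differed by -1.12 (limma adjusted p = 0.133) and Rel, a subunit of the factor, by -1.45 (0.103), whereas the adaptor Tradd differed by 1.20 (0.103). In siOCT4 cells 15 of the 19 had the same sign and the median was -0.07. Of these 15, the lower Cxcl10 and Csf2 and the higher Spp1 passed the unadjusted limma threshold there. Of all mRNA probes, 6.05% passed it as lower and 4.53% as higher in siOCT4 cells. Of the listed mRNAs, 29.2% of the lower and 23.5% of the higher passed it with the same sign. The pass of Cxcl10 in siOCT4 cells rested on siOCT4-DMSO replicate 2, at 5.03. siOCT4-DMSO replicates 1 and 3, at 3.27 and 3.21, and all siOCT4-POVPC arrays lay under the lowest signal well above background of their array. In siNT cells the median of the 19 was -0.50 with normexp and -1.38 with the Gapdh covariate. With that covariate Cxcl10, Csf2, Ccl5 and Ccl20 were among the 108 mRNA probes called of 20625, 20 of them lower.

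All 9 named interferon-induced genes, of 18, were lower in siNT-POVPC, with a median of -1.16, which was -0.75 with normexp. Isg15, a ubiquitin-like modifier and a classic interferon target, was at 8.84, 9.31 and 9.20 in siNT-DMSO and at 7.68, 7.46 and 7.91 in siNT-POVPC, a difference of -1.44 (SE 0.21, limma adjusted p = 0.103). Gbp2, a GTPase induced by interferon-gamma, was at 10.84, 10.07 and 10.88 against 8.85, 8.74 and 10.04. Its groups nearly touch, and in siOCT4 cells it differed by 0.58. The median of the 9 in siOCT4 cells was -0.30, and 5 had the same sign.

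The promoters of Cxcl10 and Isg15 were read in the same way and searched for the NF-kappaB site GGGNNTTCC and the interferon-stimulated element, which is TTTC, any 2 bases and TTTC again, on both strands. In the Cxcl10 stretch, chr5:92348969-92349117 on the minus strand, the capitals mark an interferon element 213 bases and an NF-kappaB site 103 bases before the start. In the Isg15 stretch, chr4:156200860-156200911 on the minus strand, they mark 3 overlapping interferon elements 78, 72 and 66 bases before it. The interferon elements lie on the other strand, so they read as GAAA, any 2 bases and GAAA, and other motifs are not marked.
Cxcl10 promoter: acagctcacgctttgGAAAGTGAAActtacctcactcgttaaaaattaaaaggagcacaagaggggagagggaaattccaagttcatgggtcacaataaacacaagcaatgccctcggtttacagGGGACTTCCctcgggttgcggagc
Isg15 promoter: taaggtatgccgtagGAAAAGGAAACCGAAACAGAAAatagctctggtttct
Of 6 interferon-induced genes with a promoter, 4 held the interferon element (Cxcl10, Gbp2, Isg15 and Stat4), against 3.46% of all genes. Of 16 NF-kappaB and cytokine genes, 6 held the NF-kappaB site (Ccl20, Cxcl10, Nfkb2, Rel, Tank and Tnip1), against 5.61% of all genes. The same site was in 2 of 6 interferon-induced genes and 4 of 19 ribosome biogenesis and translation genes. It was in 1 of 8 sterol synthesis genes (Hmgcs1), 1 of 9 immediate early genes and 1 of 9 lysosome and autophagy genes. It was in 0 of 11 extracellular matrix genes, 0 of 19 focal adhesion and axon guidance genes and no gene of the other lists. Cytokine and interferon-induced genes are known to answer to these factors, so their shares may follow from how the lists were made. Here too a match describes letters and not binding.

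Immediate early and growth factor response genes, which cells switch on within minutes of a mitogen, were lower as well. Of 25 genes 14 had a named probe, and 13 were lower, with a median of -1.31. Egr1, a zinc finger transcription factor, was near the top of the scale at 16.33, 16.53 and 16.49 in siNT-DMSO and at 14.94, 14.76 and 15.61 in siNT-POVPC (difference -1.35, SE 0.40, limma adjusted p = 0.195). Myc differed by -1.40 (limma adjusted p = 0.181), the EGF receptor ligand Hbegf by -1.88 (0.218) and the nuclear receptor Nr4a1 by -1.16 (0.12). Spry4, a brake on growth factor signalling, was the exception at 0.70 (0.175), although its relative Spry2 differed by -0.91 (0.124). Egr1 differed by -0.01 in siOCT4 cells, where siOCT4-DMSO arrays were already as low as 14.77, 14.90 and 13.12. The siOCT4-POVPC arrays, at 14.45, 14.13 and 14.19, lay below siOCT4-DMSO replicates 1 and 2. They lay above siOCT4-DMSO replicate 3, which was on the other slide, so the -0.01 depends on that array. The median of the 14 was -0.28 in siOCT4 cells.

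Ribosomal protein, ribosome biogenesis and translation genes were mostly at lower levels with POVPC. Of 29 genes 25 had a named probe, 24 lower and 1 higher, with a median of -0.84. The list was drawn up with earlier results known, so its named share is not the coverage of a pathway. The same holds for the extracellular matrix and the DNA replication and cell cycle genes below. Rps27l, a ribosomal protein paralog, was at 13.76, 13.99 and 14.15 in siNT-DMSO and at 13.03, 13.18 and 13.08 in siNT-POVPC (difference -0.87, SE 0.17, limma adjusted p = 0.112). Nop58, a core protein of the particles that methylate ribosomal RNA, differed by -1.55 (limma adjusted p = 0.133), with siNT-POVPC replicate 3 at 14.79 and replicates 1 and 2 at 13.21 and 13.67. Rps19 was the exception, at 1.08 (limma adjusted p = 0.178). 24 of the 25 had the same sign in siOCT4 cells, with a median of -0.55, and 12 passed the unadjusted limma threshold there, against 6.05% of mRNA probes that were lower and 29.2% of the 414 listed lower mRNAs (121). Ribosomal proteins have many near-identical copies in the genome, so a probe may read more than its own gene.

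The unfolded protein and amino acid stress genes included both directions. Of 20 genes 8 were named, 3 higher and 5 lower, and all 8 had the same sign in siOCT4 cells. The lower ones included Psph, which makes serine, at -1.78 (limma adjusted p = 0.202), the asparagine tRNA ligase Nars at -1.65 (0.189) and the stress sensor Sesn2 at -1.28 (0.141). Edem2 and Os9, which sort misfolded glycoproteins for degradation, were higher, at 1.21 (0.146) and 0.78 (0.177).

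Contractile and cytoskeletal genes of SMC were lower where they could be named. Of 19 genes 5 were named, all lower, with a median of -0.73, which was -0.49 with normexp. Tagln, the smooth muscle protein SM22-alpha, was at 5.45, 5.54 and 5.23 in siNT-DMSO and at 4.75, 4.26 and 4.56 in siNT-POVPC (difference -0.88, SE 0.19, limma adjusted p = 0.126). Smtn, smoothelin, differed by -0.73 (limma adjusted p = 0.207), Tln1, talin, by -0.68 (0.182) and Asb2, which directs filamin for degradation in muscle, by -1.59 (0.194). Smtn and Tln1 had the opposite sign in siOCT4 cells, at 0.21 and 0.04.

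Extracellular matrix genes were mostly higher, 12 of 15 named of 23, with a median of 1.07. Col1a1, the main fibrillar collagen, was at 9.90, 9.87 and 10.38 in siNT-DMSO and at 11.14, 11.34 and 11.51 in siNT-POVPC (difference 1.28, SE 0.48, limma adjusted p = 0.268), Fbln2, a fibulin, differed by 1.23 (0.141) and Adam15, a membrane metalloprotease, by 1.28 (0.103). The small proteoglycan Epyc was well above background on 2 of the 3 DMSO arrays and on no POVPC array, which makes it at least 2.75-fold lower (0.199), and Crispld2 differed by -1.58 (0.156). Col1a1 and Fbln2 differed by 1.83 and 1.11 in siOCT4 cells, where 14 of the 15 kept their sign. With the Gapdh covariate the median of the group was 0.29 and Col1a1 turned to -0.10, and with normexp the median was 0.60.

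The 24 focal adhesion and axon guidance genes, all named because the list came from the study's own analysis of these samples, held 18 higher and 6 lower ones, with a median of 0.85. Rock1, a kinase of actomyosin contraction, differed by 1.78 (limma adjusted p = 0.187), Pik3ca, a catalytic subunit of phosphoinositide 3-kinase, by 1.40 (0.157) and Gnai2 by 1.41 (0.163). Tln1 and Crkl, an adaptor of adhesion signalling, were lower, at -0.68 and -0.80 (0.182 and 0.172). 14 of the 24 had the same sign in siOCT4 cells, where Rock1 was at -0.49 and Gnai2 at 1.40.

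Genes of fatty acid oxidation and of the peroxisome were higher in 11 of 12 named of 20, with a median of 0.85. Besides Decr2 they included Amacr, a racemase of branched fatty acids (0.97, limma adjusted p = 0.129), and Hadha, of the mitochondrial trifunctional protein (0.89, 0.201). Pex19, which carries membrane proteins to peroxisomes, was the lower one at -0.78 (0.182). All 11 named lysosome and autophagy genes of 20 were higher, with a median of 0.73, from the protease Ctsb at 0.59 (0.228) to the glycosidase Ctbs at 1.32 (0.112). Their medians in siOCT4 cells were 0.23 and 0.36. The sterol uptake and efflux genes were mixed, with 3 of 7 higher. Npc1l1, a transporter that takes up cholesterol, differed by -3.77 (limma adjusted p = 0.153) and Lrp1, a lipoprotein receptor, by 0.97 (0.28), which turned to -0.24 with the Gapdh covariate. Antioxidant genes were split too, with 4 of 7 higher, and the selenium enzyme Txnrd1 differed by -1.02 (0.189). Histone genes, another list drawn up with the study's named genes known, were higher in 6 of 8, led by Hist2h3c2 at 1.66 (0.103), and DNA replication and cell cycle genes in 8 of 14. Of the latter, Tyms, which makes thymidylate, differed by -1.06 (0.112) and Rfc1, a subunit of the clamp loader, by 1.19 (0.112). With the Gapdh covariate the median moved from 0.85 to 1.35 for fatty acid oxidation and peroxisome genes and from -0.82 to -0.24 for sterol uptake and efflux. It moved from 0.77 to 1.80 for histones and turned from 0.64 to -0.24 for antioxidant genes. With normexp it was 0.43 for histones, -0.21 for sterol uptake and efflux and 0.27, in place of 0.66, for replication and cell cycle genes.

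**Figure D4:**
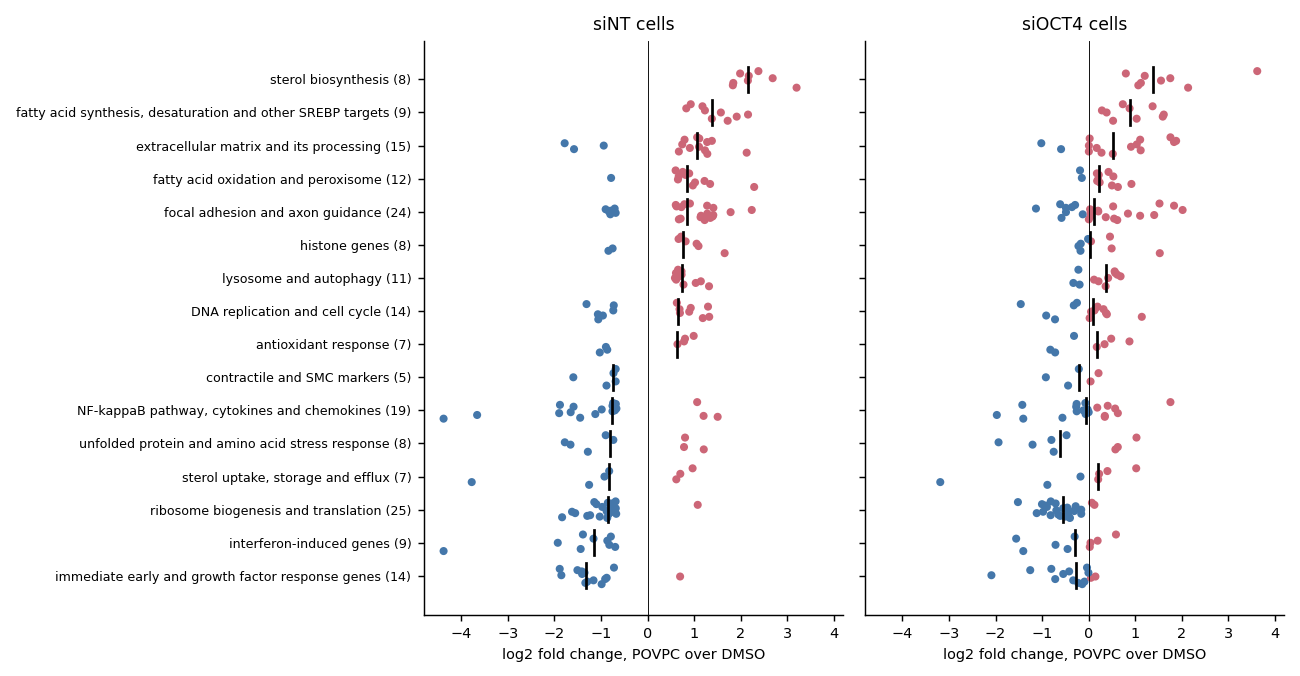
Log2 fold change of POVPC over DMSO for the named mRNAs of 16 gene lists in siNT cells (left) and in siOCT4 cells (right), with the number of named members after each list and a line at its median. Points are genes, red above 0 and blue below 0. The empty band around 0 on the left follows from the study's listing by fold change. List medians on the right, from 1.38 for sterol biosynthesis to -0.61 for the unfolded protein response, lie closer to 0 than on the left in every list. Genes listed for large differences in the siNT arrays tend to differ less in arrays that took no part in the listing, so this is a description only.

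Markers of other cells that such a culture could hold were few among the named probes. The 8 skeletal muscle markers were all named, because that list was drawn up with the study's named genes known, so their number cannot be set against that of other cell types. Of these 6 were lower and 2 higher, from Tnnc2, a troponin, at -1.52 (limma adjusted p = 0.112) to Neb, nebulin, at 2.06 (0.165). The perinatal myosin gene Myh8 differed by -1.04 (0.177). The median of the 8 was -0.72 in siNT cells and -0.07 in siOCT4 cells, where 5 had the same sign. Of 8 endothelial markers only Notch4 was named (0.63, limma adjusted p = 0.381, and -0.57 with the Gapdh covariate), of 8 macrophage markers only Clec4e (-1.65, 0.138), of 5 lymphocyte markers only Cd22 (1.06, 0.103) and of 5 adipocyte markers Cfd and Lipe (-1.39 and -0.82, 0.133 and 0.226). Of 7 fibroblast markers Dpt and Col1a1 were higher, and Pdgfra and Thy1 differed by -0.83 and -0.75 (0.193 and 0.201), with Pdgfra well above background on 1 of the 3 POVPC arrays. The defining markers Pecam1, Cd68 and Cd3e, and the SMC markers Acta2 and Myh11, had no named probe. Of 9 smooth muscle markers only Tagln and Smtn were named, and the identity of the cells was not checked. The part of other cells in the differences was not tested.

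Among the 298 named lncRNAs, all of which the study listed as higher, the median difference was 1.28. The 12 largest ran from 2.18 to 2.67 and had siNT-DMSO means below 6. Gm43465, inside an intron of Ptgfrn on chromosome 3, was at 4.76, 2.37 and 3.11 in siNT-DMSO and at 6.05, 6.58 and 5.62 in siNT-POVPC (difference 2.67, SE 0.55, limma adjusted p = 0.117). It and 3 others of the 12 (Gm47223, 5730405O15Rik and AK042899) were well above background on only 1 of the 3 DMSO arrays, so their sizes and their order rest on values near the background. AC131068.1, an intergenic lncRNA on chromosome 15 (24254986 to 24375675, minus strand), was at 5.61, 4.18 and 4.75 in siNT-DMSO and at 7.21, 6.83 and 7.30 in siNT-POVPC (difference 2.26, SE 0.36, limma adjusted p = 0.103). It had the smallest p of the named intergenic lncRNAs among the 12, and in siOCT4 cells it differed by 0.04. Detection itself moved with the treatment: 155 lncRNA and 60 mRNA probes were well above background on the 3 POVPC arrays and on no DMSO array, against 7 and 5 the other way round. The POVPC arrays were also the brighter ones before normalization, and the part of brightness in these counts was not tested.

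Malat1, an abundant nuclear lncRNA, was read by 2 probes, one for the transcript from 5795690 to 5802672 and one for that from 5795691 to 5797464 on chromosome 19 (minus strand). The capitals in the probe sequences, from the study's probe list, mark the 47 bases of 60 that both share, so the probes are nearly the same measurement.
Malat1 long transcript probe: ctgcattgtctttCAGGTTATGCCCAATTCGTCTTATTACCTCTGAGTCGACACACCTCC
Malat1 short transcript probe: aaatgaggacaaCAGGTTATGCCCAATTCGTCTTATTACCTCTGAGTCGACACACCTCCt
The second probe was at 10.38, 10.09 and 10.01 in siNT-DMSO and at 11.71, 11.70 and 11.06 in siNT-POVPC, a difference of 1.33 (SE 0.25, limma adjusted p = 0.112), and the first differed by 1.27 (limma adjusted p = 0.112). In siOCT4 cells the differences were -0.04 and 0.01, and the siOCT4-DMSO arrays, at 10.62, 10.79 and 11.39 for the second probe, lay above the siNT-DMSO arrays.

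25 of the named lncRNA probes stood beside or within a gene whose mRNA was also named. In 22 of the 25 the mRNA was higher too and in 3 it was lower, where the naming fixes that all lncRNAs were higher. Of all 857 named mRNA probes, 443 were higher. Prune2 has 2 lncRNA probes set against the same mRNA value, so its mRNA is counted with each of them. Of 16 lncRNAs that overlapped exons in the sense direction, 15 had a higher mRNA. In 4 of the 25 pairs (Acss2, Micu2, Erg28 and Slc35a1) the lncRNA and mRNA probes share 45, 49, 47 and 22 bases, so they cannot be told apart by sequence. In the other sense-overlapping pairs the lncRNA probe may still lie in a stretch that the mRNA shares, which was not tested. Of 7 natural antisense lncRNAs, 6 had a higher mRNA. The latter include BC114417 with Scd1, and AK076251 with Hs3st3b1, a heparan sulfate sulfotransferase, with differences of 1.52 and 1.25 (limma adjusted p = 0.103 and 0.116). AK076251 was at 7.68, 8.08 and 7.25 in siNT-DMSO and at 9.39, 9.08 and 9.11 in siNT-POVPC. The antisense exception was AK086870 with Fgd3, an exchange factor for Cdc42, with the lncRNA higher (0.194) and Fgd3 at -1.63 (0.103), and the other 2 exceptions were the Sag lncRNA with Sag, the arrestin of rods (1.39 and -0.81), and Gm19938 with Xkr4 (1.03 and -0.80). As the Sag lncRNA was not well above background in siNT-DMSO, its difference is a bound of at least 1.43-fold.

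**Figure D5:**
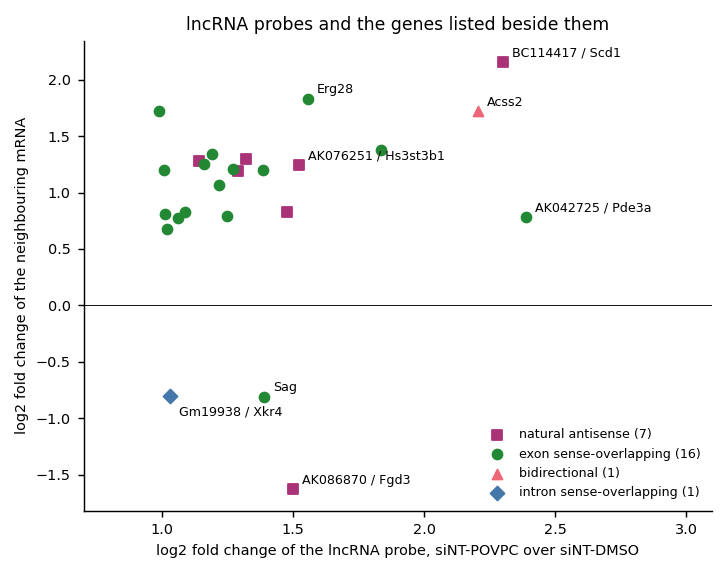
Log2 fold change of POVPC over DMSO in siNT cells of 25 lncRNA probes (horizontal axis) against that of the mRNA of the gene they overlap or adjoin (vertical axis), with the relationship as the study lists it. In 22 of the 25 the mRNA was higher, and the 3 points below the line are Sag, Gm19938 with Xkr4, and AK086870 with Fgd3.

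The POVPC responses of siNT and siOCT4 cells were compared by the interaction in the same limma fit. No probe of 54506 passed an adjusted p of 0.05, the smallest was 0.135, and 4560 (8.37%) had an unadjusted p under 0.05. The smallest belonged to the unnamed lncRNA probe that fell in siNT cells, which differed by 0.57 in siOCT4 cells, where siOCT4-DMSO arrays were already at 7.38, 6.95 and 7.26. BC114417 differed by 1.86 in siOCT4 cells (limma adjusted p = 0.0636), Slurp1 by 1.33 (0.166) and Spdya by 0.39 (0.39). siOCT4-DMSO arrays measured 5.41, 4.88 and 5.29 for Spdya, between the 2 siNT groups.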

How the data were processed

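12 RNA samples were hybridised to 1-colour mouse lncRNA arrays. Per the file headers, the deposited intensities are Agilent Feature Extraction 11.0.1.1 processed signals, already background-subtracted; the log2 values of the series table were quantile-normalized by the authors in GeneSpring GX. Here processed signals were floored at 5, quantile-normalized over the 12 arrays and log2-transformed, with outlier spots left out, and r with the authors' table was 1 on each siNT array. limma 3.58.1 in R 4.3.3 (lmFit, eBayes) was fitted to 54506 probes that were well above background on at least 3 arrays, with a mean for each of 4 groups. Benjamini-Hochberg adjustment covered both probe classes. The fit was tested on simulated data. The labels do not say whether replicate numbers pair the samples. The r of deviations between same-numbered siNT-DMSO and siNT-POVPC arrays was 0.0449, -0.0123 and -0.18. It ran from -0.208 to 0.242 between differently numbered ones, and so few arrays cannot decide it. An exact permutation test of 3 against 3 arrays cannot go below p = 0.1. The number of arrays limits the precision. Members and lists were chosen with earlier results of these data known, and lists drew in part on the study's tables. Genes named are the called probes, the 12 largest differences each way, members of the lists and lncRNAs listed beside a named mRNA. Probes with an adjusted p between 0.05 and 0.1, Malat1 and the probes outside the authors' table were chosen after their values were seen. Gene names, probe sequences and coordinates came from the study's supplementary tables, whose fold changes and p-values were not used. Promoter sequences are from RefSeq (GRCm38.p6). The single-gene values of some list members are not reported here.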

Additional observations from a re-analysis of the deposited data

Results flagged for a closer look

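The array carries 47 gene probes in 10 spots each that passed the detection filter and are not part of the authors' table. With limma none had an adjusted p under 0.05 (the smallest was 0.15), and 6 had an unadjusted p under 0.05 and a fold of at least 1.5, 5 higher and 1 lower (12.8%), beside 5653 of all 54506 tested probes. In 4 of the 47 (8.51%) all POVPC arrays lay above all DMSO arrays, which is why they are given here, although 7.07% of all tested probes did the same. E2f1, a transcription factor of the cell cycle, was at 5.13, 4.63 and 5.33 in siNT-DMSO and at 7.03, 7.78 and 6.10 in siNT-POVPC, a difference of 1.94 on the log2 scale, and it differed by 1.39 in siOCT4 cells. Cav2, caveolin 2, differed by 1.48 in siNT cells and by -0.38 in siOCT4 cells. Rps4l differed by 0.84, and Il2 by 0.21. The 1 lower probe was Apoe, of the sterol uptake and efflux list, at -1.16 in siNT cells. Cpt1a and Ppara, of the fatty acid oxidation and peroxisome list, differed by 0.66 and 0.63. For Apoe, Cpt1a and Ppara the siNT-POVPC and siNT-DMSO arrays overlapped.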

How the results depend on the processing

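The main counts were 2 lncRNA and 2 mRNA calls, and 3379 lncRNA and 2274 mRNA probes at an unadjusted limma p under 0.05 and 1.5-fold. With 75th percentile scaling 1 mRNA was called, and with a floor of 20 the number of lncRNAs called was 5. With normexp background correction 21 lncRNAs and 15 mRNAs were called, and 1527 and 1304 probes passed unadjusted. A fit to only the 6 siNT arrays gave 0 calls in both classes, with 2978 and 1958 probes unadjusted. The methods' t-test gave 0 and 0 calls after Benjamini-Hochberg adjustment, and 1454 and 965 probes at its unadjusted threshold. With slide as a block 14 and 11 were called. Whether the replicate numbers pair the samples is not known. With the replicate block 1 lncRNA and 0 mRNAs were called, with 3500 and 2374 probes unadjusted. With the Gapdh 3′ to 5′ difference as a covariate, chosen after seeing the data, 213 lncRNAs and 108 mRNAs were called and 7891 and 4983 passed unadjusted. Among the genes named in the text and the list members reported here, that fit turned Lrp1 (-0.24), Scarb1 (-0.094), Nqo1 (-0.24), Spp1 (-1.20), Col1a1 (-0.10), P3h3 (-0.089), Nck1 (-0.33), Prkca (-0.80), Wipi1 (-0.0061), Hist2h2ab (-0.039) and Notch4 (-0.57) from higher to lower, and Il15ra (0.13) from lower to higher. The floor of 20 turned Il17c (0.0028), Eif4e (0.0010) and Hist2h2ac (0.00042). Leaving out 1 array gave 0 to 299 lncRNA calls and 0 to 205 mRNA calls, and 2621 to 4801 and 1642 to 3243 probes unadjusted. The highest of these had siNT-DMSO replicate 1 removed. Removing siNT-POVPC replicate 3 gave 210 and 187, without siOCT4-DMSO replicate 2 they were 9 and 7, and without siOCT4-DMSO replicate 3 they were 14 and 11. Without siOCT4-DMSO replicate 1 they were 2 and 1, without siOCT4-POVPC replicate 1 they were 1 and 0, and without any one of the other 6 arrays both were 0. The cause of these shifts was not tested. The other settings kept the number of calls within 1.5 times. In the simulated data for this contrast, with 54506 probes, limma recovered 162 of 200 probes changed by a log2 difference of 2 (81%), with 7 false calls.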
